A study of Arabidopsis thaliana with 4 samples.

Results

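The 10 genes described here build and export suberin, the fatty polyester of root cell walls, and were taken by locus from the arrays of Arabidopsis thaliana seedlings grown with ASP or without it (control). A gene entered when a probe set of the deposited workbook was annotated to its locus and to no other, and each of the 10 loci had exactly 1 such probe set, out of 21226 genes with a probe set of their own. They are KCS2 (AT1G04220), CYP86A1 (AT5G58860), CYP86B1 (AT5G23190), FAR1 (AT5G22500), FAR4 (AT3G44540), FAR5 (AT3G44550), GPAT5 (AT3G11430), ASFT (AT5G41040), ABCG2 (AT2G37360) and ABCG20 (AT3G53510). All 10 were called present, that is above background, on all 4 arrays.

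Both groups were wild type, accession Columbia 0, and each consisted of whole seedlings sampled at an age of 5 days. ASP is the submitters' short name for a piperazine with a (bromophenoxy)acetyl group on one nitrogen and a (fluorophenyl)sulfonyl group on the other. Its dose is not stated in the labels. The ASP group had the compound in the 1/2 MS agar medium and the control group had the same medium without it, with 2 arrays each, named biological replicates in the labels. All seedlings were kept at 22 to 24 °C with 16 h of light and 8 h of dark. The labels do not say how many seedlings were pooled per array or whether the replicates were grown in separate batches, so p-values measure only the spread among these 4 samples. Because whole seedlings were used, a difference in how many cells deposit suberin and one in transcript per cell cannot be told apart.

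Suberin is laid down between the plasma membrane and the primary wall of endodermal cells that already have a Casparian strip, and also in the seed coat and in bark. Fatty acids are lengthened, oxidised or reduced at the end of the chain, joined to glycerol and to ferulic acid, and exported by ABC transporters before they are linked into the polymer. In roots the layer limits uncontrolled passage of water and ions through the endodermal membrane, and its extent is known to respond to nutrient supply, abscisic acid and ethylene.

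With ASP the suberin genes did not pass the test, and their mean log2 signal was higher for 9 of the 10 and lower for FAR5. The largest differences were in FAR4 (1.96-fold), the elongase gene KCS2 (1.8-fold), FAR1 (1.55-fold) and the exporter gene ABCG2 (1.46-fold). In these 4 both ASP arrays lay above both control arrays, a pattern that 18.5% of all probe sets showed. In FAR5 both ASP arrays lay below both control arrays, as in 20.9% of all probe sets. In either direction that made 5 of 10 genes, against 39.4%. The other 5 genes had overlapping groups. The median log2 fold change, ASP minus control, was 0.25 over the 10 genes, against -0.02 over all 22746 probe sets, of which 47.5% were higher with ASP.

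Limma's moderated test over all probe sets called 0 of the 10 genes at a Benjamini-Hochberg adjusted p under 0.05, and adjusted p ran from 0.706 for FAR1 to 0.996 for CYP86A1. The same test called 0% of all probe sets, so it could not separate these genes from any others. At an unadjusted p under 0.05 it had 0 of the 10 genes, against 7.42% of all probe sets. When the variance prior followed brightness (the intensity trend), 0.317% of all probe sets were called (0.149% higher and 0.167% lower with ASP) and again 0 of the 10 genes, with a smallest adjusted p of 0.279. At an unadjusted p under 0.05 that fit had 3 of the 10, FAR1 (0.00599), FAR4 (0.0126) and KCS2 (0.024), against 9.47% of all probe sets. None of the 10 stood in the authors' deposited table of 148 differing probe sets. That table required an unadjusted t-test p under 0.05 and a 2-fold change, over 3 columns per group.

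**Figure D1:**
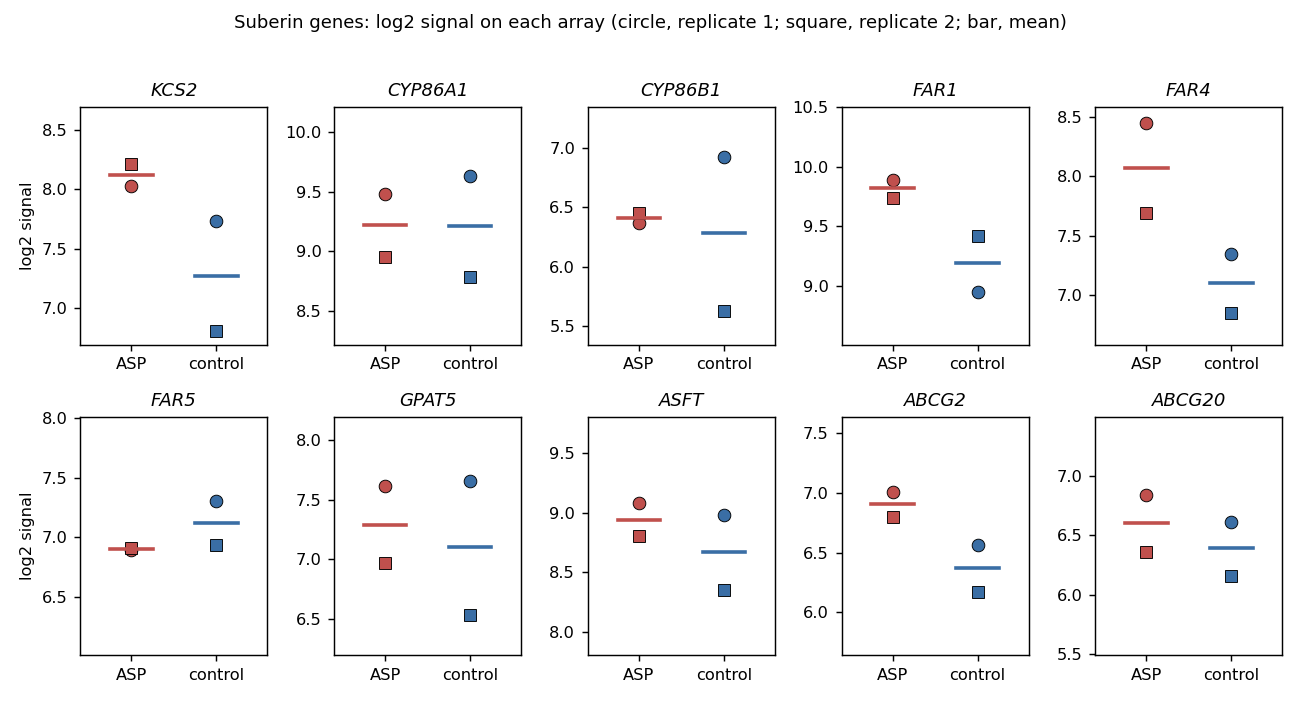
Log2 signal (vertical axis, each panel spanning the same range of 2 log2 units) of the 10 suberin genes on the 2 ASP arrays and the 2 control arrays; circles are replicate 1, squares replicate 2 and bars the group means. The ASP arrays lie above both control arrays for KCS2, FAR1, FAR4 and ABCG2, and the control arrays lie far apart for CYP86B1 and GPAT5.

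The elongase KCS2 adds carbon units to fatty acyl-CoA in the first step towards very-long-chain suberin monomers. Its log2 signal was 8.03 and 8.21 on the ASP arrays, against 7.73 and 6.81 on the control arrays. The groups did not overlap, but the control arrays differed from each other by 1.89-fold, more than the 1.8-fold between the group means. The log2 fold change was 0.85, with limma's 95% interval from -0.32 to 2.01 (adjusted p 0.751). Without control replicate 1 it was 1.31, and without control replicate 2 it was 0.39.

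The cytochrome P450 enzymes CYP86A1 and CYP86B1 hydroxylate the end of the fatty acid chain, CYP86A1 acting on long chains and CYP86B1 on very long ones. CYP86A1 had a log2 signal of 9.48 and 8.95 with ASP, against 9.63 and 8.78 in control. The ASP values lay inside the range of the control values, and the log2 fold change was 0.01 (95% interval -1.22 to 1.24, limma adjusted p 0.996). CYP86B1 had 6.37 and 6.45 with ASP, against 6.92 and 5.63 in control. Here too the ASP arrays fell between the control arrays, which were 2.45-fold apart, the widest gap of the 10 genes. Its log2 fold change was 0.13 (95% interval -1.42 to 1.69, limma adjusted p 0.965). The intervals of both genes include a 2-fold change in either direction.

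FAR1, FAR4 and FAR5 are fatty acyl-CoA reductases that make the primary alcohols of suberin, with FAR5 known for the shortest chain, FAR4 for the middle one and FAR1 for the longest. FAR4 and FAR5 are neighbouring protein-coding genes on chromosome 3. FAR1 had a log2 signal of 9.89 and 9.74 with ASP, against 8.95 and 9.42 in control. It was the only one of the 10 genes whose control replicate 2 was the higher control array. Its log2 fold change was 0.63 (95% interval -0.07 to 1.33, limma adjusted p 0.706), and it stayed between 0.39 and 0.86 whichever array was left out.

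FAR4 had a log2 signal of 8.45 and 7.69 with ASP, against 7.35 and 6.85 in control. The lower ASP array was still above the higher control array, and the log2 fold change of 0.97 was the largest of the 10 (95% interval -0.15 to 2.09, limma adjusted p 0.713). Without ASP replicate 1 it was 0.59 and without ASP replicate 2 it was 1.35. FAR5 had 6.89 and 6.91 with ASP, against 7.30 and 6.93 in control. The ASP arrays were nearly equal and lay just under the lower control array, and the log2 fold change was -0.22 (95% interval -0.81 to 0.37, limma adjusted p 0.839). The neighbouring FAR4 and FAR5 thus had differences of opposite sign, but the difference between them was not tested.

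GPAT5 transfers acyl groups to glycerol 3-phosphate and is needed for normal suberin in roots and seed coats. Its log2 signal was 7.61 and 6.97 with ASP, against 7.66 and 6.53 in control. Replicate 1 was the higher array in both groups, and the groups overlapped. The log2 fold change was 0.19 (95% interval -1.37 to 1.76, limma adjusted p 0.949). ASFT, annotated in the workbook as omega-hydroxypalmitate O-feruloyl transferase, attaches ferulic acid to the hydroxylated fatty acids. It had 9.08 and 8.80 with ASP, against 8.98 and 8.35 in control, again with replicate 1 higher in both groups. Its log2 fold change was 0.28 (95% interval -0.62 to 1.18, limma adjusted p 0.864).

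ABCG2 and ABCG20 are half-size ABC transporters of the plasma membrane that are required, together with ABCG6, for an effective suberin barrier. ABCG2 had a log2 signal of 7.01 and 6.80 with ASP, against 6.56 and 6.17 in control. The groups did not overlap, and the log2 fold change was 0.54 (95% interval -0.11 to 1.20, limma adjusted p 0.723). ABCG20 had 6.84 and 6.36 with ASP, against 6.61 and 6.16 in control. Its groups overlapped, with a log2 fold change of 0.21 (95% interval -0.65 to 1.08, limma adjusted p 0.891).

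**Figure D2:**
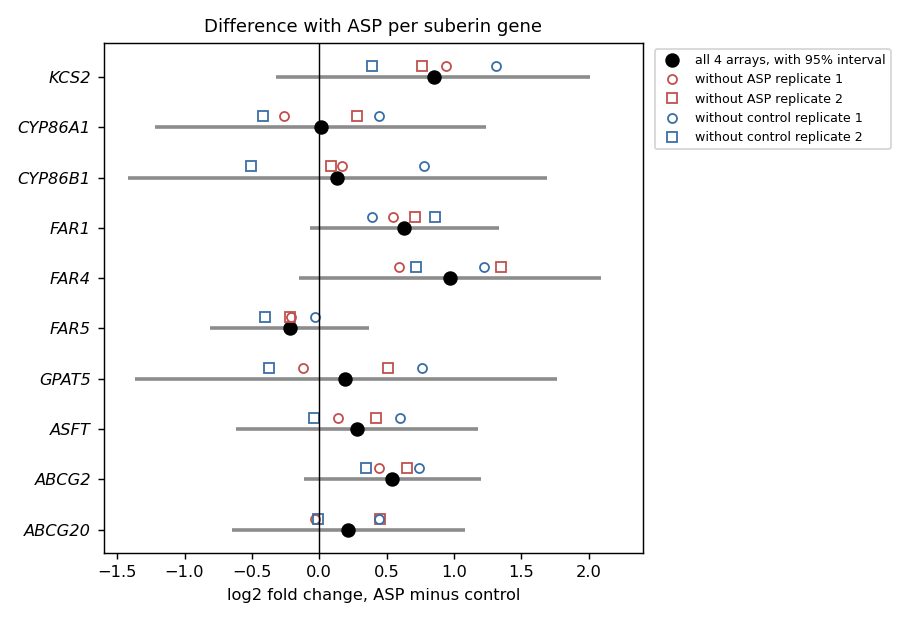
Log2 fold change, ASP minus control, of each suberin gene (horizontal axis); black points with grey lines are limma's estimates and 95% intervals from all 4 arrays, and open symbols leave out 1 array each. Every interval includes 0, and without control replicate 2 the estimates of 6 genes lie below 0.

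The direction of the smaller differences rested on which control array was used. Without control replicate 2 the median log2 fold change of the 10 genes was -0.03 and 6 of them were lower with ASP, and without control replicate 1 the median was 0.67 and 1 was lower. Leaving out ASP replicate 1 gave a median of 0.16 with 4 genes lower, and leaving out ASP replicate 2 gave 0.48 with 1 lower. KCS2, FAR1, FAR4 and ABCG2 were higher and FAR5 lower with ASP in all 4 of these fits. The groups of these genes did not overlap, so leaving out 1 array could not turn their direction. ABCG2 lay between 0.35, without control replicate 2, and 0.74, without control replicate 1. FAR5 lay between -0.40, without control replicate 2, and -0.03, without control replicate 1.

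The control arrays differed from each other in most of these genes. Control replicate 1 was above control replicate 2 for 9 of the 10, by a median of 0.57 in log2 signal, and in the ASP group replicate 1 was above replicate 2 for 7 of the 10, by a median of 0.24. Among the 9155 probe sets that were present on all 4 arrays and as bright as these genes, control replicate 1 was the higher in 46.7% and ASP replicate 1 in 52.7%. Of these probe sets 7.76% had control arrays further apart than the median control gap of the suberin genes, and 40.3% had ASP arrays further apart than their median ASP gap. In the control group replicate 1 was also higher in 21 of 25 other suberin genes, 11 of 12 endodermis markers, 7 of 7 root hair markers and 5 of 7 xylem markers. It was higher in 1 of 2 cortex transcripts and in 1 of 3 root cap markers, 2 of which were absent. The same held outside the root lists, in 16 of 19 family relatives, 13 of 20 cutin genes and 3 of 4 green tissue genes. Among 12 seed and seed coat genes, most of them absent, it was higher in 9. ASP replicate 1 was higher in 19 of 25 other suberin genes, 10 of 12 endodermis markers and 5 of 7 xylem markers. It was higher in 2 of 7 root hair markers, 7 of 20 cutin genes and 10 of 19 family relatives. The 4 green tissue genes and 3 root cap markers were all higher on ASP replicate 1. So were 10 of 12 seed and seed coat genes and 1 of 2 cortex transcripts. Of the 24 bacterial control probe sets used for labelling, 23 were higher on control replicate 1, by a median of 0.57, and 8 of 24 were higher on ASP replicate 1. Their median log2 difference between the groups, ASP minus control, was 0.27, about that of the suberin genes, with 20 of 24 higher with ASP. The 18 hybridisation controls had a median difference of 0.16. The 6 probe sets against 5′ stretches of the actin, GAPDH and ubiquitin transcripts had one of -0.19, with all 6 lower with ASP. The 6 against 3′ stretches of these transcripts had one of 0.04, with 5 higher with ASP. The part of these shifts in the values of the suberin genes was not tested.

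**Figure D3:**
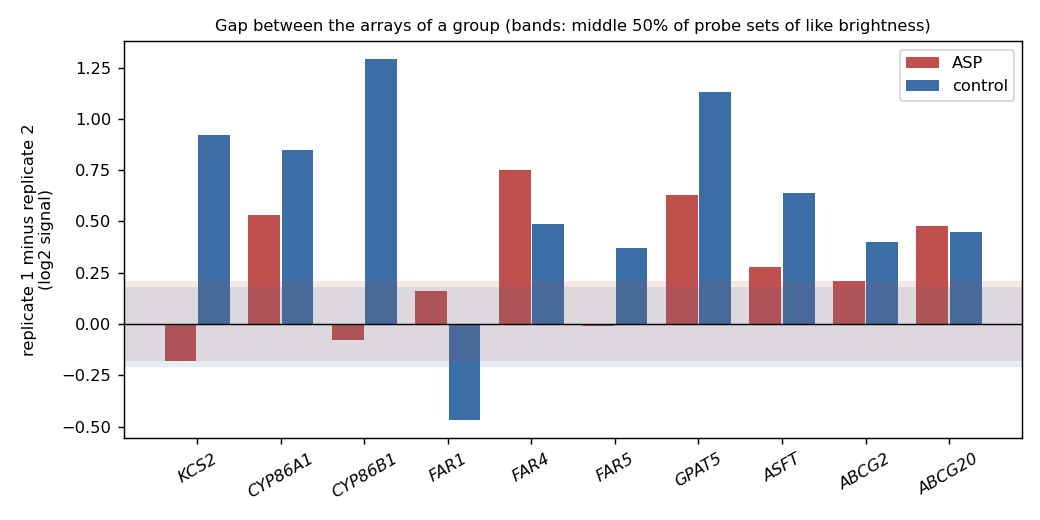
Replicate 1 minus replicate 2 in log2 signal (vertical axis) within the ASP group and within the control group for each suberin gene; the shaded bands hold the middle 50% of probe sets of like brightness, from -0.18 to 0.21 with ASP and from -0.21 to 0.18 in control. All 10 control bars reach beyond their band, and FAR1 is the gene with a negative control bar.

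Other genes of the suberin pathway, 26 in all, were listed by locus, and 25 had a probe set of their own, 14 of them higher and 11 lower with ASP. Their median log2 fold change was 0.03. Limma called 0 of the 25 with or without the intensity trend. The exporter genes ABCG16 and ABCG1 had log2 fold changes of 1.03 and 0.35. ABCG16 had a log2 signal of 6.45 and 5.78 with ASP, against 5.67 and 4.50 in control, where it was called marginal and absent (limma adjusted p 0.775). ABCG6, which acts together with ABCG2 and ABCG20, had 7.34 and 7.33 with ASP, against 7.63 and 6.98 in control, a log2 fold change of 0.03.

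Among 8 regulators of suberin genes, 3 were present on all 4 arrays, and MYB53, MYB39 and MYB107 were absent on all 4. MYB93, a root endodermis MYB factor, had a log2 signal of 7.54 and 7.19 with ASP, against 7.10 and 6.47 in control, and the NAC factor gene ANAC058 had 7.90 and 7.38, against 7.30 and 6.74. In both the ASP arrays lay above the control arrays, with log2 fold changes of 0.58 and 0.62 (limma adjusted p 0.775 for each). These 2 were picked by smallest p. Of the 25 other suberin genes 7 had both ASP arrays above both control arrays, against 18.5% of all probe sets, and 2 had both below. MYB92 overlapped between the groups, at -0.16.

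Chain elongation genes shared with wax synthesis had log2 fold changes from -0.21 in CER10, the enoyl-CoA reductase, to 0.18 in KCR1, the ketoacyl-CoA reductase. KCS20, which acts in part redundantly with KCS2, had a log2 signal of 10.37 and 10.72 with ASP, against 10.70 and 10.59 in control. Its log2 fold change of -0.10 stood beside 0.85 for KCS2. FACT and DCF, which attach hydroxycinnamic acids to fatty alcohols and hydroxylated acids, had 0.35 and 0.13. The 4 GDSL lipase genes of the list, a family with members that assemble suberin outside the cell, were all lower with ASP. These 4 were singled out after their values were seen. AT1G74460, AT2G23540 and AT5G37690 had log2 fold changes of -0.35, -0.03 and -0.27 with overlapping groups. AT1G54790 had -2.93 with groups that did not overlap (limma adjusted p 0.589, unadjusted p 0.0233). It was absent on both ASP arrays and on control replicate 2, so this value rests on signal near background.

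Cutin, the related polyester of the shoot surface, is made by sister genes of the same families. Of 20 cutin genes measured 9 were higher and 11 lower with ASP. Their median log2 fold change was -0.06, and limma called 0. The members with the smallest p were LACS1, a long-chain acyl-CoA synthetase gene (-0.70), CUS1, a GDSL lipase gene (-0.51), BDG, a cuticle hydrolase gene (-0.33), and HTH, an oxidoreductase gene (-0.28). LACS1 had a log2 signal of 7.28 and 7.96 with ASP, against 8.40 and 8.23 in control, so its groups did not overlap (limma adjusted p 0.738). Of the 20 genes 6 had both ASP arrays below both control arrays, against 20.9% of all probe sets, and 2 had both above.

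Of 19 family relatives of the suberin genes, some of them also in the suberin and cutin lists, 6 were higher and 13 lower with ASP, at a median of -0.10 and 0 calls by limma. Among the fatty acyl-CoA reductases FAR2, FAR6, FAR7 and FAR8 were absent on all 4 arrays. FAR3, the wax alcohol enzyme CER4, was present and had a log2 fold change of -0.30. GPAT1 had a log2 signal of 5.92 and 4.54 with ASP, against 6.75 and 6.23 in control, and was present only on replicate 1 of each group (log2 fold change -1.26, limma adjusted p 0.752). GPAT3 had a log2 fold change of -0.24.

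**Figure D4:**
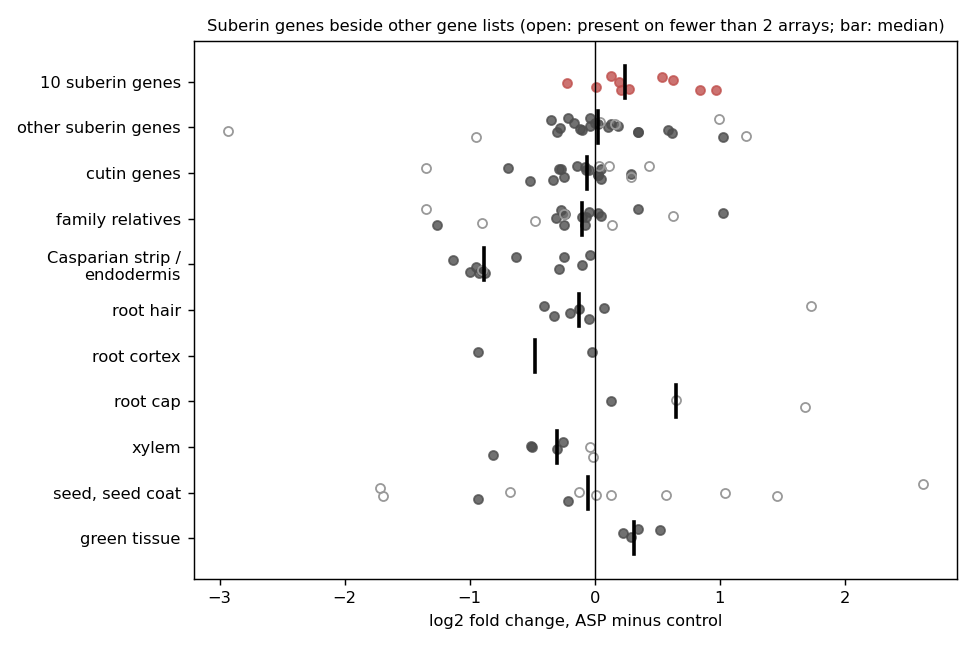
Log2 fold change, ASP minus control (horizontal axis), of each gene in the suberin list and 10 other lists; open points are genes present on fewer than 2 arrays and black bars are list medians. The 10 suberin genes have a median of 0.25, and the 12 markers of the Casparian strip and endodermis all lie below 0 with a median of -0.89.

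The endodermis, the layer that carries suberin in young roots, was checked by 12 markers of the cell layer and its Casparian strip, of which 11 were present on at least 2 arrays. All 12 were lower with ASP. Their median log2 fold change was -0.89, and limma called 0 of them. Their summed linear signal was 3228 and 2749 on the ASP arrays, against 5461 and 3506 on the control arrays. The 10 suberin genes summed to 3460 and 2826 with ASP, against 2846 and 2088 in control. Such sums are carried by the brightest genes, among the suberin genes FAR1, CYP86A1 and ASFT, and do not describe a list as a whole. The 4 endodermis markers with the smallest p were UCC1, a blue copper protein gene (-1.13), CASP4 (-0.90) and CASP1 (-0.87), which scaffold the strip, and the peroxidase gene PER64 (-1.0). In each of these 4, picked by p, both ASP arrays lay below both control arrays. Of all 12 markers 7 showed this, against 20.9% of all probe sets. SCR, which specifies the cell layer, had a log2 fold change of -0.04.

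Because both lists were higher on control replicate 1, the suberin genes were also read against the endodermis markers within each array, a comparison chosen after the values were seen and given without a test. Each gene was centred on its own mean over the 4 arrays. The mean of the suberin genes minus that of the endodermis markers was 0.49 and 0.53 on the ASP arrays, against -0.51 and -0.52 on the control arrays. Replicates thus differed by little in this measure, and the groups by 1.03. ASP minus control, the suberin mean alone gave 0.36 and the endodermis mean alone -0.67. The same endodermis mean is taken from every gene, so each difference is the gene's log2 fold change shifted upward by that fixed amount. All 10 suberin genes had both ASP arrays above both control arrays when read this way, with differences from 0.45 in FAR5 to 1.63 in FAR4. Over all probe sets 58.8% did so, since the endodermis markers were lower with ASP, and the median difference was 0.65 against 0.91 for the suberin genes. The other suberin genes gave 0.31 and 0.36 with ASP, against -0.37 and -0.31 in control. The measure sets the lists against each other and does not show that either of them changed.

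**Figure D5:**
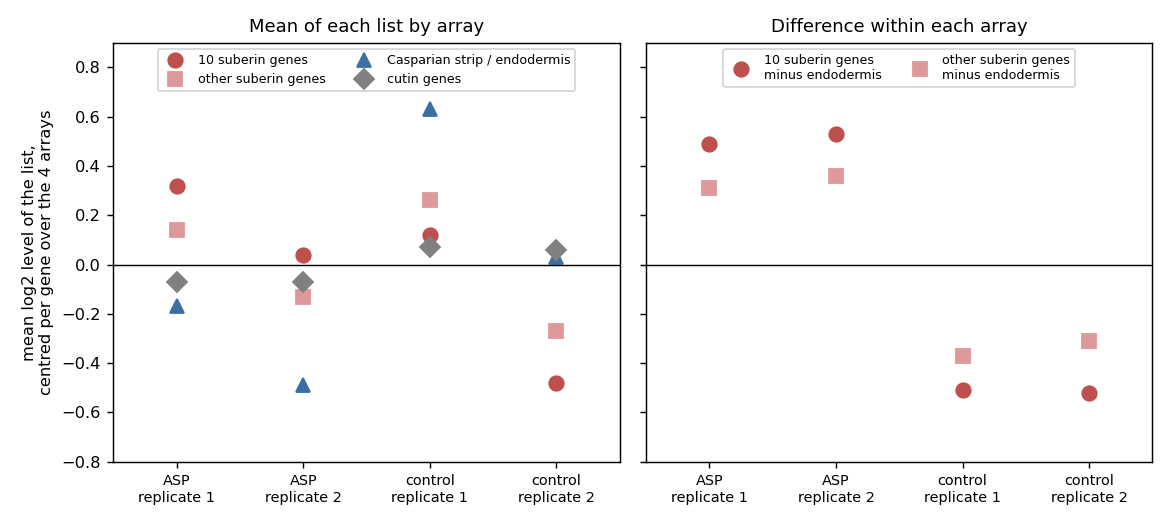
Left, mean log2 level of 4 gene lists on each array, each gene centred on its mean over the 4 arrays; right, the suberin lists minus the endodermis markers within each array. The 10 suberin genes lie between 0.49 and 0.53 above the endodermis markers on the ASP arrays and between 0.51 and 0.52 below them on the control arrays. The endodermis mean alone differed by -0.67 between the groups, ASP minus control.

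Markers of other tissues were measured to see what else the seedlings held. The 7 xylem markers, 2 of them absent on all arrays, were all lower with ASP and had a median log2 fold change of -0.30, led by XCP1 (-0.81), IRX3 (-0.51), XCP2 (-0.50) and IRX5 (-0.30). Root hair markers had a median of -0.13 with 5 of 7 lower, among them EXPA18 (-0.41), COBL9 (-0.32), PRP3 (-0.20) and EXPA7 (-0.13). The 2 that were higher were RSL4 (1.73), present on only 1 array, and LRX1 (0.08), present on all 4. The 2 cortex transcripts AT1G62500 and AT1G09750 had -0.93 and -0.02, and SMB, the 1 root cap marker present on all arrays, had 0.13, beside BRN1 and BRN2 that were absent. The 4 green tissue genes that had a probe set of their own were all higher, with CA1 at 0.52, SBPASE at 0.34, RCA at 0.29 and PSAD-1 at 0.23. Of 12 seed and seed coat genes 10 were absent on all 4 arrays. The storage protein gene CRC had -0.93 and the mucilage gene MUM2 -0.21. Limma called 0 genes in any of these lists, and the part of tissue proportions in the values of the suberin genes was not tested.

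The transcripts whose pattern over the 4 arrays was nearest to the mean centred profile of the 10 genes were sought by Euclidean distance among 14933 probe sets present on at least 2 arrays. The 5 nearest were AT1G09340, a chloroplast RNA-binding protein gene (distance 0.0118), the tetraspanin gene AT2G20740 (0.041), the SAUR-like gene AT4G34760 (0.0499), the papain-type protease gene AT4G16190 (0.0789) and the zinc knuckle gene AT3G24070 (0.0883). Of all probe sets searched, 24% were closer to this profile than the median suberin gene, which was 0.535 away from it. The profile itself is small, from -0.48 on control replicate 2 to 0.32 on ASP replicate 1. Transcripts that differ little between arrays can thus also lie this close, and the share does not show how common the pattern is.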

How the data were processed

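The authors deposited normalized log2 signal and a detection call for each probe set, per the file headers. Labelling used a 3′ IVT kit for Affymetrix arrays, per the labels' protocols, and no label or header names the summary or normalization method. The authors' table of differing probe sets holds p-values of an unadjusted t-test and the fold change (a ratio of mean linear signals) over 3 columns per group, per the file headers, and was used only to see whether it lists the genes. Of the workbook's per-sample columns 4 matched no sample by name and were not used. Of these, 2 held log2 signal, of a replicate B. The authors' test over 3 columns per group thus drew on more columns than the 2 arrays per group compared here. The workbook's log2 values and those of the deposited series matrix differed by at most 5e-09.

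Without the 64 control probe sets, 22746 were tested. ASP was compared with control by a two-sided moderated test of limma 3.58.1, run under R 4.3.3 (eBayes after lmFit, with neither intensity trend nor replicate block), adjusted by Benjamini-Hochberg over all probe sets at 0.05, with 2 residual and 1.34 prior degrees of freedom. On simulated arrays of this number this fit recovered the sizes of planted changes but called none of them. The fit with the intensity trend called most of them. The simulated spread depended on brightness alone, which favours the trend, and the planted changes were larger than those of the suberin genes. The simulation thus does not show what either fit could call here. Since the fit without the trend called 0% of all probe sets, its lack of calls says little. Present probe sets numbered 15075 and 15706 with ASP, against 15415 and 15282 in control. Precision is limited by having 4 arrays.

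The members, gene lists (other suberin, cutin, family relatives, endodermis, root hair, cortex, root cap, xylem, seed and green tissue) and tests were chosen with earlier results of these data known. Named genes were all members, of each list up to 4 with the smallest p among those present on at least 2 arrays, and the 5 nearest patterns of single genes. Every other gene named was chosen after its values were seen. For genes with several probe sets the brightest was used. Gene names follow the workbook and RefSeq's gene table for TAIR10.1, whose start positions were used only for the gene order around FAR4 and FAR5.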

Additional observations from a re-analysis of the deposited data

How the results depend on the processing

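Under 15 alternatives 0 of the 10 genes were called, and the smallest adjusted p was 0.0645, for FAR1 with the intensity trend and the replicate number as a block. Of 150 values of single genes, 141 kept their direction and 9 turned, none of them a call, and the cause was not tested. Most of the alternatives leave the log2 fold changes as they were, so their values could not turn. The 9 that turned came from quantile normalization and from leaving out an array. After quantile normalization CYP86A1 was at -0.0011 and 2 genes were lower with ASP. Leaving out each array in turn gave 1 to 6 genes lower and a median from -0.03 to 0.67, with CYP86A1 from -0.42 to 0.44, CYP86B1 from -0.51 to 0.78, GPAT5 from -0.37 to 0.76, ASFT from -0.04 to 0.60 and ABCG20 from -0.03 to 0.45. The count over all probe sets, 0 in limma without a trend, was 72 with the intensity trend, 321 with the trend and the replicate block, 18 without the dimmest 30% of probe sets, 19 among those present on at least 2 arrays and 1 with linear values under 50 set to 50. The labels do not say whether same-numbered arrays were paired, though these share a letter (A or C). Across all probe sets the replicate gaps of the groups correlated at 0.000171. Among the 10 genes replicate 1 was the higher array for 7 with ASP and for 9 in control. Whether the arrays were paired cannot be told from these values. With the replicate block alone, limma called 0 probe sets, the median of the 10 genes was 0.25 with 1 lower, and their smallest adjusted p was 0.721.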
